A study of Mus musculus with 12 samples.

Results

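AMP-activated protein kinase (AMPK) and the kinases upstream of it were described in mouse liver after exercise in the fed state. The members were the 10 genes for the catalytic α subunits (Prkaa1 and Prkaa2), the β subunits (Prkab1 and Prkab2), the γ subunits (Prkag1 and Prkag2), the LKB1 complex (Stk11, Strada and Cab39) and the kinase CaMKK2 (Camkk2). They were chosen by name for their known role, and all 10 were among the 17432 genes of the deposited table. RNA-Seq was performed on the livers of 12 male wild-type C57BL/6J mice, a common inbred laboratory strain, aged 8 to 10 weeks. All 12 had been adapted to a treadmill, synchronised to daytime feeding and refed before the food was taken away. The Exercise group (n = 6) then ran at 14 m/min for 3 h, the Sedentary group (n = 6) did not run, and livers of both groups were collected at the same time. The comparison asks how a single postprandial run altered liver transcripts, and no fasted liver was part of these samples. Where nothing in the labels says otherwise, each library was taken as 1 mouse.

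AMPK is a heterotrimer that senses the energy state of the cell. Its γ subunit binds AMP, ADP and ATP, its β subunit holds the complex together and binds glycogen, and its α subunit carries the kinase domain. The kinase is switched on when LKB1, bound to the pseudokinase STRADα and the scaffold MO25α, or the calcium-responsive kinase CaMKK2 phosphorylates the α subunit. In liver, active AMPK is known for restraining fatty acid and cholesterol synthesis. The libraries measured RNA, and neither AMPK protein nor its phosphorylation can be read from them.

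After exercise, 7 of the 10 genes changed, 2 of them higher and 5 lower, all by less than 2-fold. Camkk2 fell by 40.0% and Prkab1 by 26.0%, while Prkaa1 rose 1.26-fold and Cab39 1.16-fold. Prkaa2, Prkag1 and Prkag2 fell by 10.3% to 12.5%. Prkab2, Stk11 and Strada did not pass the test. With counts scaled by library size alone, 1 gene was higher and 5 were lower, as Cab39 lost its call. Genes were called by edgeR at an adjusted p under 0.05, with the adjustment of Benjamini and Hochberg over all 12344 genes tested. The same test called 42.4% of all genes tested, 21.1% higher and 21.3% lower, so calls were common throughout the transcriptome. The median log2 fold change of the 10 genes was -0.072 against -0.0028 over all genes tested, and the median size of the change was 0.21 in both sets. Only Prkab1 had groups that did not overlap. Over all genes tested, 10.6% were lower and 11.7% were higher without overlap between the groups. Library totals were 18971992 to 19324461 counts in the Sedentary group and 18745379 to 19001010 in the Exercise group. Levels within a gene are given as CPM, counts scaled by library size and the TMM factor of edgeR, and 1 CPM was about 19.0 counts. As the deposited counts come from bulk tissue, fewer cells of a type and less RNA per cell cannot be told apart.

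**Figure D1:**
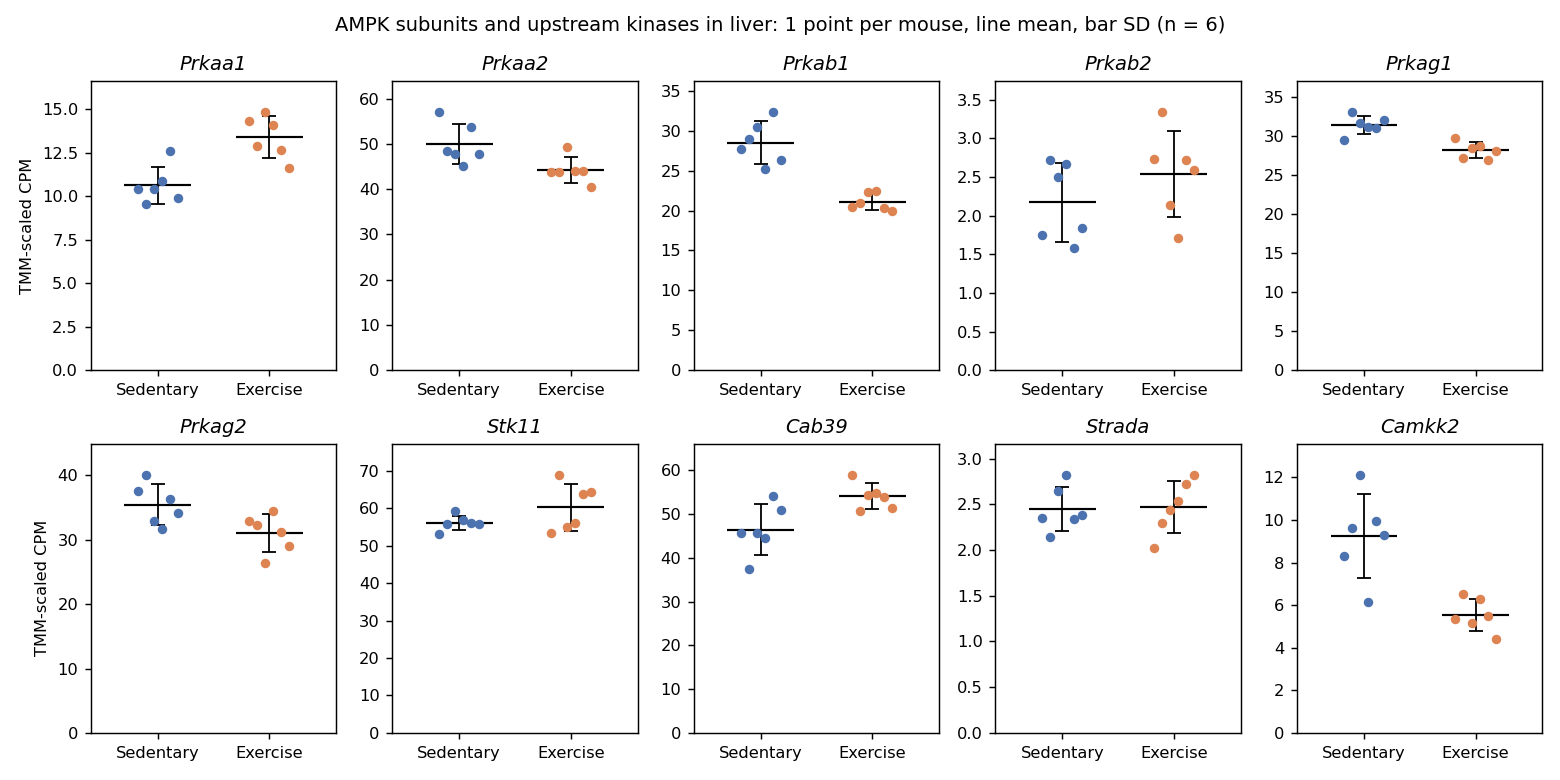
Levels as TMM-scaled CPM (y axis of each panel, from 0) of the 10 genes in Sedentary and Exercise livers (x axis), with 1 point per mouse, a line at the mean and a bar for the SD (n = 6 per group). The Prkab1 groups are apart (25.2 to 32.4 against 19.99 to 22.4 CPM), and the Camkk2 groups share only the range from 6.15 to 6.53 CPM.

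Levels of different genes were compared by FPKM, which is scaled for transcript length. In Sedentary livers Stk11 was highest at 25.1 ± 1.54 FPKM (SD, n = 6), followed by Prkag1 at 20.4 ± 1.29 FPKM, and neither overlapped the next gene. Prkab1 (14.8 ± 1.13 FPKM), Cab39 (13.3 ± 1.33 FPKM) and Prkag2 (10.5 ± 1.43 FPKM) came next, each overlapping its neighbour. Prkaa2 (6.41 ± 0.56 FPKM) stood alone. Prkaa1 (2.41 ± 0.14 FPKM), Camkk2 (1.85 ± 0.38 FPKM) and Strada (1.17 ± 0.12 FPKM) overlapped in turn, and Prkab2 was lowest at 0.46 ± 0.11 FPKM. In Exercise livers the order differed at 1 place, where Cab39 (14.4 ± 0.77 FPKM) stood above Prkab1 (10.2 ± 0.44 FPKM) without overlap. Prkaa1 (2.86 ± 0.21 FPKM) no longer overlapped Camkk2 (1.11 ± 0.17 FPKM), which still overlapped Strada (1.10 ± 0.15 FPKM).

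The sequences before the start sites are shown for both α subunit genes, whose transcripts moved in opposite directions, and for the 2 genes with the largest decreases. They come from RefSeq promoter windows of build GRCm38.p6, in which all 10 genes had an entry (12 windows, 3 of them for Prkag2), and lie at chr15:5143611-5143860 (+ strand), chr4:105109899-105110148 (- strand), chr5:116024509-116024678 (- strand) and chr5:122779411-122779660 (- strand). They are printed 5′ to 3′ on the strand of the gene and stop before any annotated transcript begins, which leaves 170 bases for Prkab1 and 250 for the others. Capitals mark GC boxes (GGGCGG, or CCGCCC on the other strand), the motif that Sp1-type factors are known to bind.
Prkaa1: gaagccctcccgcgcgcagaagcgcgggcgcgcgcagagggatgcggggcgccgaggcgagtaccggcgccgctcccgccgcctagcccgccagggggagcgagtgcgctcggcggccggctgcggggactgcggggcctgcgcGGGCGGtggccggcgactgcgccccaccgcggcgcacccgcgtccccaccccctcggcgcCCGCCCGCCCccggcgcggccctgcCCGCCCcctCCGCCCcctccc
Prkaa2: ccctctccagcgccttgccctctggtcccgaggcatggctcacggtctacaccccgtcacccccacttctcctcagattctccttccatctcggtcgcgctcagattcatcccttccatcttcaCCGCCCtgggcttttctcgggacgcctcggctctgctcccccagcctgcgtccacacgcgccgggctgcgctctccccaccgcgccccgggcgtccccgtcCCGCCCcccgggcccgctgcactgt
Prkab1: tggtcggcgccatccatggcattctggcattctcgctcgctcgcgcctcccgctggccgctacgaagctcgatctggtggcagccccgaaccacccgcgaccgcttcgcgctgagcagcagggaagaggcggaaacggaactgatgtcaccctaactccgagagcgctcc
Camkk2: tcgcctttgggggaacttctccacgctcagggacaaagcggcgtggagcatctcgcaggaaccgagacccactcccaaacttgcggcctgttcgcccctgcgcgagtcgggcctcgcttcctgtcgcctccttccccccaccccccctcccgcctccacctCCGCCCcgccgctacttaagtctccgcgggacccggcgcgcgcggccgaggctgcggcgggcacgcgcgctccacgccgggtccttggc
GC boxes may overlap one another, and the window of 250 bases held 5 in Prkaa1, 2 in Prkaa2, 1 in Camkk2 and none in Prkab1. At least 1 GC box was found in 9 of the 12 windows of the 10 genes, against 32.7% of all 32851 RefSeq promoter windows of the same length. CCAAT, on either strand, was in 4 of the 12 windows (33.9% of all windows). TATAAA, the E-box CACGTG, the cAMP response element TGACGTCA and the forkhead motif TGTTTAC were in 0 of the 12 windows, and in 12.4%, 6.02%, 1.55% and 3.17% of all windows. G and C made up 85.2% of the Prkaa1 window, 72.4% of the Camkk2 window, 70.0% of the Prkaa2 window and 65.6% of the Prkab1 window, against a median of 52.4% over all windows. A link of these motifs to the changes of the transcripts was not tested. The matches describe letters and not the binding of a factor.

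The catalytic α subunits moved in opposite directions. Prkaa1 (gene ID 105787, α1, chromosome 15 of GRCm38 from 5143861 to 5181899, + strand) ran from 9.55 through a median of 10.4 to 12.6 CPM in Sedentary livers and from 11.6 through 13.5 to 14.8 CPM in Exercise livers. All but 1 of the Exercise livers were above every Sedentary liver, and all 6 were above the Sedentary median. Prkaa1 rose by a log2 fold change of 0.34 (SE 0.082, adjusted p = 0.00292 from edgeR, p = 0.00433 from an exact permutation test, two-sided). It stayed past the threshold in each of 12 fits that left out 1 liver, with 0.31 to 0.39. Prkaa2 (gene ID 108079, α2, chromosome 4 from 105029874 to 105109890, - strand), the α subunit with the higher level per length here, ran from 45.2 through 48.1 to 57.0 CPM in Sedentary livers and from 40.5 through 43.9 to 49.3 CPM in Exercise livers. In 5 of the 6 Exercise livers it was below every Sedentary liver, and 1 Exercise liver (replicate 3, 49.3 CPM) lay inside the Sedentary range. Prkaa2 fell, with a log2 fold change of -0.18 (SE 0.064, adjusted p = 0.0336 from edgeR, p = 0.0195 from the exact permutation test). This call held in 5 of the 12 fits, and it was lost without Sedentary replicate 1 or 5 or without Exercise replicate 1, 2, 4, 5 or 6 (adjusted p from edgeR 0.0572 to 0.0927).

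The share of Prkaa1 in the summed FPKM of both α genes ran from 24.3% through a median of 27.4% to 29.9% in Sedentary livers and from 33.8% through 34.6% to 37.0% in Exercise livers. The groups did not overlap. The mean share rose from 27.4 ± 2.06% to 35.0 ± 1.33% (SD, n = 6 each), a gain of 7.65 percentage points (p = 0.00216 in the exact permutation test, where 6 mice against 6 cannot give less, and 0.00649 adjusted over the 3 subunit classes). A share within a library does not depend on the scaling between libraries, and the gain was 5.68 points as a share of counts, which are not per length. The summed α FPKM was 8.81 ± 0.57 in Sedentary and 8.17 ± 0.42 in Exercise livers (SD, n = 6 each), a log2 difference of -0.11 (exact permutation test, adjusted p = 0.0411). That difference shrank to -0.013 (exact permutation test, adjusted p = 0.840) when FPKM was divided by the TMM factor, and it missed the threshold without any of 8 livers (Sedentary replicates 1, 2 and 5 and Exercise replicates 1, 2, 4, 5 and 6), with -0.078 to -0.11.

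Of the β subunits, which bridge α and γ, Prkab1 fell the most of the 6 subunit genes. Prkab1 (gene ID 19079, β1, chromosome 5 from 116013586 to 116024508, - strand) ran from 25.2 through 28.3 to 32.4 CPM in Sedentary livers and from 19.99 through 20.7 to 22.4 CPM in Exercise livers. Every Exercise liver was below every Sedentary liver. The log2 fold change was -0.44 (SE 0.066, adjusted p = 5.0e-05 from edgeR, p = 0.00216 from the exact permutation test), and it stayed past the threshold in each of the 12 fits that left out 1 liver (-0.47 to -0.39). Prkab2 (gene ID 108097, β2, chromosome 3 from 97658193 to 97673812, + strand), known as the main β subunit of skeletal muscle, had 29 to 64 counts per library. It ran from 1.58 through 2.17 to 2.72 CPM in Sedentary livers and from 1.71 through 2.66 to 3.34 CPM in Exercise livers. These ranges overlapped widely, and the log2 fold change of 0.22 (SE 0.18, 95% interval -0.13 to 0.57) did not pass the test (adjusted p = 0.343 from edgeR). Counting error alone gives Prkab2 a coefficient of variation of 14.9%, and its livers varied by 23.4% in the Sedentary and 22.03% in the Exercise group.

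Prkab1 made up nearly all β transcript in both groups, with 95.9% through a median of 97.0% to 98.1% of the summed FPKM in Sedentary livers and 93.9% through 94.96% to 97.0% in Exercise livers. The ranges overlapped, and the mean share fell by 1.67 percentage points, from 97.0 ± 0.79% to 95.3 ± 1.10% (SD, n = 6 each, exact permutation test, adjusted p = 0.0292). Without Sedentary replicate 5 or Exercise replicate 1, 2, 5 or 6 the adjusted p of the exact permutation test was 0.0519 to 0.0584. As a share of counts, which are not per length, the difference was -3.64 points. The summed β FPKM fell from 15.3 ± 1.13 to 10.7 ± 0.43 (SD, n = 6 each), a log2 difference of -0.51 without overlap of the groups (exact permutation test, adjusted p = 0.00325), and of -0.41 with FPKM divided by the TMM factor.

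Both γ subunits, which bind the adenine nucleotides, were lower after exercise. Prkag1 (gene ID 19082, γ1, chromosome 15 from 98812797 to 98831521, - strand) ran from 29.5 through 31.3 to 33.0 CPM in Sedentary livers and from 26.9 through 28.2 to 29.7 CPM in Exercise livers. In 5 of 6 Exercise livers it was below every Sedentary liver, and the overlap came from Exercise replicate 1 (29.7 CPM) and Sedentary replicate 1 (29.5 CPM). Prkag1 fell, with a log2 fold change of -0.16 (SE 0.051, adjusted p = 0.0188 from edgeR, p = 0.00433 from the exact permutation test), a call lost without Exercise replicate 5 (-0.14, adjusted p = 0.0627 from edgeR). Prkag2 (gene ID 108099, γ2, chromosome 5 from 24862744 to 25100642, - strand), whose mutations are known to cause heart disease, ran from 31.6 through 35.2 to 40.1 CPM in Sedentary livers and from 26.3 through 31.7 to 34.5 CPM in Exercise livers. Only 3 of 6 Exercise livers were below every Sedentary liver, although all 6 were below the Sedentary median. Its log2 fold change was -0.19 (SE 0.073, adjusted p = 0.0412 from edgeR, p = 0.0303 from the exact permutation test). The Prkag2 call held in 6 of the 12 fits and was lost without Sedentary replicate 1, 2 or 5 or Exercise replicate 3, 5 or 6 (adjusted p from edgeR 0.0687 to 0.109), and also on the FPKM scale (-0.21, adjusted p = 0.0913 from limma).

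In the γ class no shift in the balance of the genes passed the test. Prkag1 made up 66.1 ± 2.23% of the summed FPKM in Sedentary and 65.5 ± 2.52% in Exercise livers (SD, n = 6 each, difference -0.60 percentage points, exact permutation test, adjusted p = 0.669). The sum of both fell from 30.9 ± 2.51 to 26.1 ± 1.61 FPKM (SD, n = 6 each), a log2 difference of -0.24 without overlap (exact permutation test, adjusted p = 0.00325), and of -0.15 with FPKM divided by the TMM factor. The muscle γ3 gene Prkag3 had at most 19.6 counts in a library and was not tested.

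**Figure D2:**
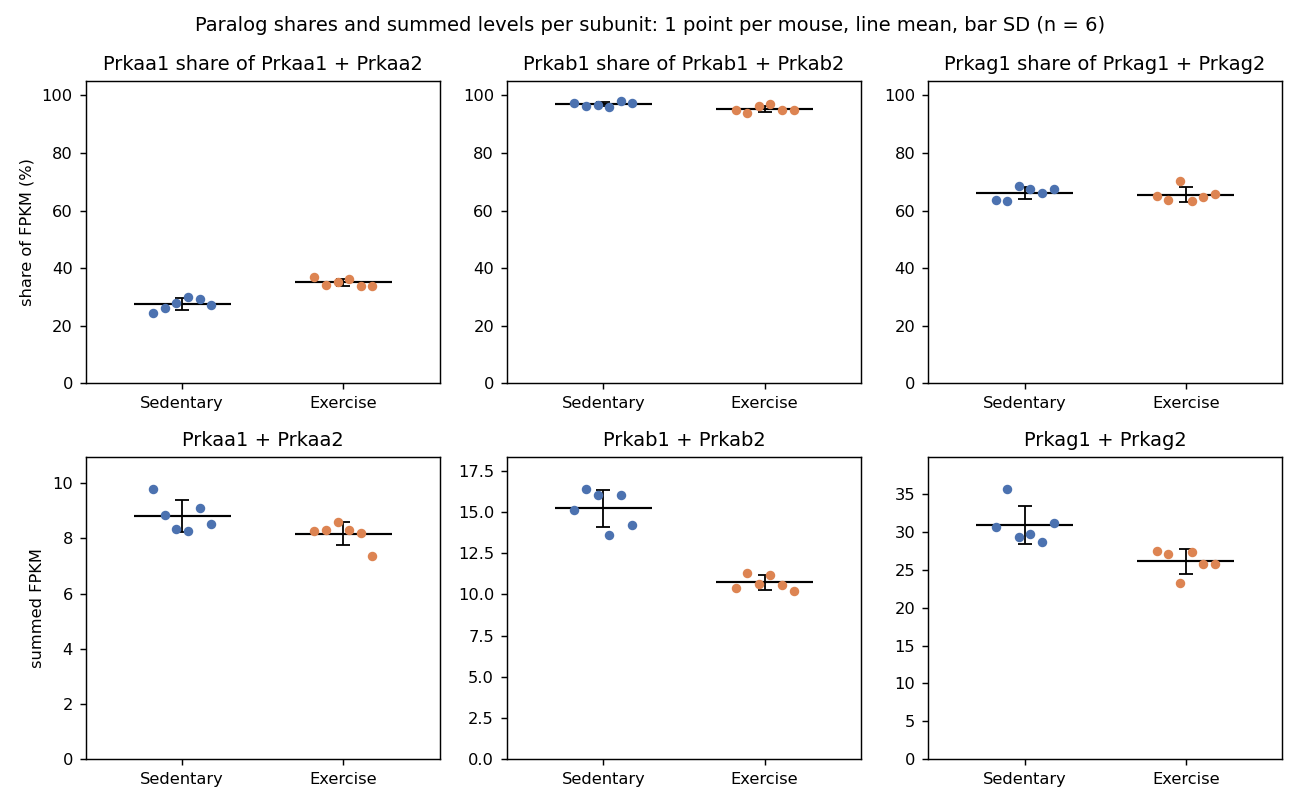
Share of the first gene of each subunit class in the summed FPKM of its class (upper row, y axis in %) and the summed FPKM of the class (lower row, y axis from 0) in Sedentary and Exercise livers, with 1 point per mouse, a line at the mean and a bar for the SD (n = 6 per group). The Prkaa1 share is higher in every Exercise liver (33.8% to 37.0%) than in any Sedentary liver (24.3% to 29.9%), while the summed β and γ levels are lower without overlap.

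Transcripts of heart and skeletal muscle were present in part of the libraries, and Prkaa2, Prkab2 and Prkag2 are genes that muscle is known to express. Of 7 heart and muscle markers, 4 were tested and all 4 fell (Myh6, Myh7, Actc1 and Tnnt2), and the level summed over the 7 was 11.1 to 23.0 CPM in Sedentary and 0.058 to 11.3 CPM in Exercise livers. Myh6, the heart myosin heavy chain, had 85.2 to 212 counts in Sedentary livers, 106 in Exercise replicate 1 and 0 in the other 5 Exercise livers, while Myl2 stayed under 1 count throughout. Exercise replicate 1, whose summed marker level of 11.3 CPM was just above the lowest Sedentary liver, had 43.7 CPM of Prkaa2 and 32.9 CPM of Prkag2, inside the range of the other Exercise livers (40.5 to 49.3 and 26.3 to 34.5 CPM). Among Sedentary livers, replicates 1 and 5 had the most Myh6 (10.6 and 7.88 CPM) and the most Prkaa2 (57.0 and 53.7 CPM). From highest to lowest, Myh6 and Prkaa2 had the same order over all 6 Sedentary livers (replicates 1, 5, 2, 6, 3 and 4). Sedentary replicate 4 had the least Myh6 (4.29 CPM), Prkaa2 (45.2 CPM) and Prkag2 (31.6 CPM). Prkag2 was highest in Sedentary replicate 2 (40.1 CPM), followed by replicates 1 and 5 (37.5 and 36.3 CPM). Prkab2 went the other way and was lowest in Sedentary replicates 5 and 1 (1.58 and 1.75 CPM). Hepatocyte markers summed to 117061 to 158987 CPM in Sedentary and 144243 to 161749 CPM in Exercise livers, with Alb called higher of 5. Of 5 endothelial markers Pecam1 and Lyve1 rose and Kdr fell (summed level 84.9 to 110 CPM in Sedentary and 89.4 to 135 CPM in Exercise livers). Of 5 stellate cell markers Lrat and Des fell (138 to 184 and 129 to 190 CPM). None passed of 6 macrophage, 4 cholangiocyte and 3 red blood cell markers. Of 5 lymphocyte and 3 neutrophil markers only 1 each had enough counts to be tested, and neither passed. The adipocyte genes Adipoq and Plin1 were at or near 0. The part of these cell types in the results on AMPK genes was not tested.

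Of the LKB1 complex, only the scaffold gene passed the test. Stk11 (gene ID 20869, LKB1, chromosome 10 from 80115803 to 80130682, + strand) ran from 53.1 through 56.0 to 59.2 CPM in Sedentary livers and from 53.4 through 60.0 to 69.0 CPM in Exercise livers. Here 3 Exercise livers (replicates 2, 5 and 6) were above every Sedentary liver and the other 3 lay within the Sedentary range. The log2 fold change of 0.10 (95% interval -0.022 to 0.23) did not pass (adjusted p = 0.208 from edgeR, p = 0.154 from the exact permutation test), and it was -0.012 on the FPKM scale. Cbarp overlaps Stk11 on the opposite strand with a mean of 38.0 counts per library and a log2 fold change of 0.81 (adjusted p = 0.00183 from edgeR), and the strand setting of the counting is not given in the sources used here.

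Cab39 (gene ID 12283, MO25α, chromosome 1 from 85793441 to 85851576, + strand) ran from 37.5 through 45.8 to 54.3 CPM in Sedentary livers and from 50.8 through 54.2 to 59.0 CPM in Exercise livers. All 6 Exercise livers were above the Sedentary median, and 3 were above every Sedentary liver. Cab39 rose by a log2 fold change of 0.22 (SE 0.074, adjusted p = 0.0234 from edgeR, p = 0.0173 from the exact permutation test), in each of the 12 fits that left out 1 liver. The rise depended on the scaling, since counts scaled by library size alone gave 0.13 (adjusted p = 0.132 from edgeR). Strada (gene ID 72149, STRADα, chromosome 11 from 106163330 to 106202168, - strand) had 36.9 to 56.0 counts per library. It ran from 2.15 through 2.37 to 2.82 CPM in Sedentary livers and from 2.02 through 2.48 to 2.82 CPM in Exercise livers. The groups covered nearly the same range, and the log2 fold change was 0.013 (95% interval -0.23 to 0.26, adjusted p = 0.945 from edgeR), with a sign that turned under other scalings. Strada overlaps Ccdc47 on the same strand, a gene with a mean of 1211 counts per library, and reads that both share could have been assigned to either.

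Camkk2 (gene ID 207565, chromosome 5 from 122731170 to 122779409, - strand), which couples calcium signals to AMPK, changed most of the 10 genes. It ran from 6.15 through 9.46 to 12.1 CPM in Sedentary livers and from 4.42 through 5.42 to 6.53 CPM in Exercise livers. In 4 of 6 Exercise livers Camkk2 was below every Sedentary liver, all 6 were below the Sedentary median, and the overlap came from 1 low Sedentary liver (replicate 4, 6.15 CPM). The log2 fold change was -0.74 (SE 0.14, adjusted p = 0.000315 from edgeR, p = 0.00649 from the exact permutation test) and stayed past the threshold in each of the 12 fits that left out 1 liver (-0.83 to -0.64). Its spread in the Sedentary group, with a coefficient of variation of 21.3%, was larger than the 8.4% that counting error alone gives.

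**Figure D3:**
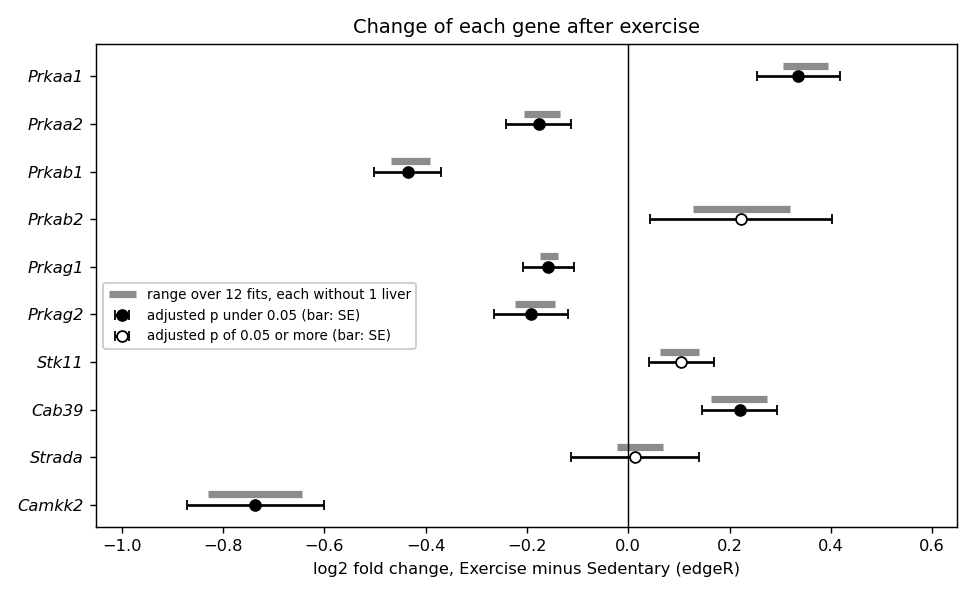
Log2 fold change of each of the 10 genes, Exercise minus Sedentary (x axis, 6 mice against 6), with the SE as a black bar and the range over 12 fits that each left out 1 liver as a grey bar. Filled points mark an adjusted p under 0.05 from edgeR. Camkk2 at -0.74 and Prkab1 at -0.44 lie farthest below 0, Prkaa1 at 0.34 lies farthest above it, and the grey bar of Strada crosses 0.

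The mice of a group varied least in Stk11 among the Sedentary livers (coefficient of variation 3.49%) and most in Prkab2. Counting error alone gives 3.00% for Stk11, so its Sedentary livers varied little beyond it. The Sedentary livers varied by 3.77% in Prkag1, below its counting error of 4.20%. Cab39 varied by 12.4% in Sedentary and 5.39% in Exercise livers, and Stk11 by 3.49% and 10.4%, differences of spread that were not tested. The GENCODE annotation places antisense genes over Prkaa1, Prkab1, Prkag1 and Prkag2, and the protein-coding gene Gm17651 over Prkab2 on the opposite strand. None of these is in the deposited table. Reads from the opposite strand could therefore be counted with the kinase genes if the counting did not use strand.

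The count and the FPKM of a gene together give a length in bases that stands for the effective length in the quantification and moves when reads are assigned to longer or shorter transcripts of the gene. It rests on the count totals of the table and could be computed for 7 of the 10 genes, those with at least 1 FPKM in every liver. For Prkaa2, with 1 annotated coding transcript of 7969 bases, it was 8059 ± 28.1 bases in Sedentary and 8050 ± 20.6 bases in Exercise livers (SD, n = 6 each). For Prkab1, with transcripts of 2026 and 2089 bases, it was 1988 ± 3.60 and 1992 ± 2.54 bases. For Prkag2, 6 coding transcripts of 211 to 3331 bases are annotated and RefSeq lists 3 start sites. It was the only one of the 7 to move at an unadjusted p under 0.05. Over all 9035 genes, 10.6% did so in the exact permutation test and 917 genes did in limma. A single gene of 7 is thus close to the share over all genes. The effective length of Prkag2 ran from 3315 through 3546 to 3623 bases in Sedentary livers and from 3168 through 3315 to 3483 bases in Exercise livers. The ranges overlapped, and the difference (log2 -0.072) did not pass the adjusted test (adjusted p = 0.372 from limma over 9035 genes). Of the 9035 genes, 1.07% passed in that test, and 0 of the 7 did. The other 6 differed by at most 0.014 on the log2 scale. The lengths of Prkaa2 and, in part of the livers, Prkag2 exceeded the longest GENCODE transcript, so they are compared here between livers only and not read as transcript lengths.

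Genes with the most similar pattern over the 12 livers were searched for the highest and the lowest of the called genes among the 7084 tested genes whose mean reached 10 CPM. The measure was the root mean square difference of log2 CPM, with each gene centred on its mean. For Prkaa1 these were Gigyf2 (difference 0.062), R3hcc1l (0.062) and Smarcc1 (0.066), against a median of 0.24 over the 7084 genes. Gigyf2 went from 25.9 ± 3.22 to 32.5 ± 3.18 CPM (SD, n = 6 each). For Camkk2 they were C77080 (0.147), Cldn1 (0.1503) and Ablim1 (0.1505), against a median of 0.43. C77080 went from 49.0 ± 6.73 to 29.6 ± 2.18 CPM (SD, n = 6 each). The neighbours of Camkk2 lay farther from it than those of Prkaa1 lay from Prkaa1.

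Other genes of the pathway were read from hand-written lists, each gene by the same edgeR test, beside the 42.4% called over all genes tested. The lists were written with earlier results of these data known, so a share above 42.4% cannot be read as a trait of a list. In a list of 5 further genes of these families and of TAK1 (Map3k7), a kinase that can act on AMPK, 3 were tested and none was called. They were Stradb, with a log2 fold change of 0.058, Cab39l with 0.14 and Map3k7 with -0.085. The lowest adjusted p of the 3 in edgeR was that of Cab39l (0.0906). DESeq2 and limma-voom called 0, and limma on the FPKM scale called 1, as lower. Without Sedentary replicate 5 or Exercise replicate 2, edgeR called 1, as higher. Prkag3 and Camkk1 had too few counts to be tested.

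Of the AMPK-related kinases, which LKB1 also activates, 6 of 10 tested changed, 4 higher and 2 lower (60.0%). The salt-inducible kinases, which are known to restrain the gluconeogenic program through CRTC coactivators, all rose. Sik3 went from 53.5 ± 6.42 to 86.4 ± 8.76 CPM (SD, n = 6 each), a log2 fold change of 0.69 without overlap (SE 0.083, adjusted p = 4.38e-06 from edgeR). Sik2 rose by 0.44 and Mark4, a kinase of microtubule-associated proteins, by 0.30 on the log2 scale, both without overlap. Sik1 rose by 0.56, a call lost without Sedentary replicate 2 or Exercise replicate 3 (adjusted p from edgeR 0.0537 and 0.0511). Nuak2 fell by 0.39 and Snrk by 0.30 on the log2 scale, and Mark1, Mark2, Mark3 and Nuak1 did not pass.

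Of 23 substrates of AMPK, all tested, 14 changed, 8 higher and 6 lower (60.9%), with a median log2 fold change of -0.018. With counts scaled by library size alone, 7 were higher and 8 lower. The lipogenic regulator Srebf1 fell from 499 ± 86.6 to 130 ± 25.2 CPM (SD, n = 6 each), a log2 fold change of -1.94 (SE 0.14, adjusted p = 3.73e-07 from edgeR), and each Exercise liver was below each Sedentary liver. Eef2k, which slows translation elongation, fell by 0.79 on the log2 scale without overlap. Acaca and Acacb, the acetyl-CoA carboxylases that make malonyl-CoA, fell by 0.56 and 0.46 on the log2 scale (edgeR, adjusted p = 0.0238 and 0.0263), with overlapping groups. The Acaca call was lost without Sedentary replicate 1 or Exercise replicate 3, 5 or 6 (adjusted p from edgeR up to 0.0601), and the Acacb call without Sedentary replicate 2, 3 or 6 or Exercise replicate 3 (up to 0.0608). Foxo3, a transcription factor of stress and fasting programs, rose from 33.4 ± 3.86 to 72.2 ± 7.13 CPM (SD, n = 6 each), a log2 fold change of 1.11 (SE 0.080, adjusted p = 2.43e-08 from edgeR). Pfkfb2, which sets fructose 2,6-bisphosphate, rose by 1.05, the autophagy kinase Ulk1 by 0.72 and the clock repressor Cry1 by 0.65 on the log2 scale. These 4 genes that rose had no overlap between the groups.

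Of 15 tested regulators of AMPK, its lysosomal partners, its phosphatases and its upstream receptors, 9 changed, 7 higher and 2 lower (60.0%). Sesn2, a stress-induced sestrin that promotes AMPK activation, went from 3.68 ± 1.28 to 10.8 ± 1.295 CPM (SD, n = 6 each), a log2 fold change of 1.56 without overlap (SE 0.17, adjusted p = 3.67e-06 from edgeR). Its relative Sesn1 rose by 0.52 on the log2 scale. Flcn and Fnip1, which encode folliculin and an AMPK-binding partner of it, rose by 0.55 and 0.65 on the log2 scale, Flcn without and Fnip1 with overlap. Their relatives Sesn3 and Fnip2, named here after their values were seen, did not pass. Sesn3 had a log2 fold change of 0.14 and Fnip2 of -0.20 (adjusted p = 0.559 and 0.0531 from edgeR). Adipor2, a receptor of the AMPK-activating hormone adiponectin, fell from 522 ± 38.4 to 300 ± 23.6 CPM (SD, n = 6 each), a log2 fold change of -0.80 (SE 0.066, adjusted p = 9.86e-08 from edgeR). Adipor1, the other receptor, named here after its values were seen, rose by 0.16 on the log2 scale without overlap (adjusted p = 0.0247 from edgeR). That call was lost with library size alone (0.061, adjusted p = 0.348), on the FPKM scale (0.059) and without Sedentary replicate 2 or 3 or Exercise replicate 3. Lamtor1, the anchor of the lysosomal Ragulator complex, fell by 0.41 on the log2 scale without overlap. With counts scaled by library size alone, the list had 6 genes higher and 4 lower, and on the FPKM scale 5 higher and 4 lower.

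Of 13 tested enzymes that make or consume the adenine nucleotides AMPK senses, 8 changed, 2 higher and 6 lower (61.5%). Adsl and Adssl1, which make AMP from IMP, fell by 0.43 and 0.30, and the salvage enzyme Aprt fell by 0.22 on the log2 scale, all with overlap. The deaminase genes Ampd3 and Ada rose by 0.63 and 0.61 on the log2 scale from low levels (12.5 to 24.5 and 21 to 46 counts per library), also with overlap. Ak3 and Ak4 did not pass, and Ak1 and Ampd1 had too few counts to be tested.

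**Figure D4:**
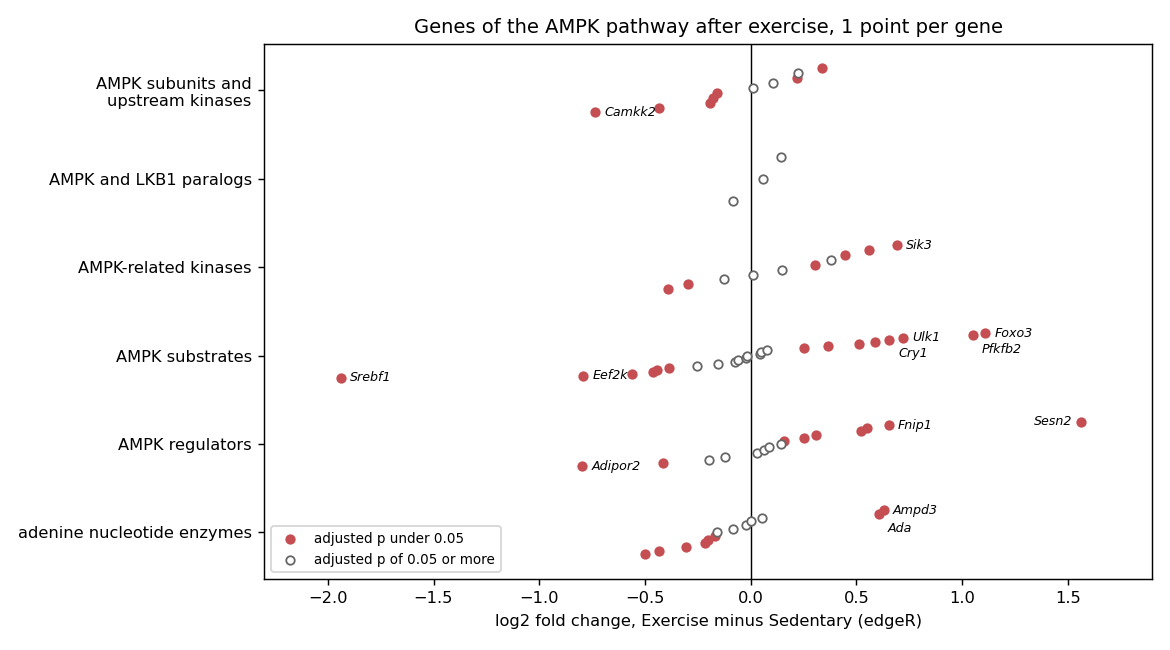
Log2 fold change after exercise (x axis, Exercise minus Sedentary, edgeR) of each tested gene of the AMPK subunits and upstream kinases and of 5 lists around AMPK (y axis), with 1 point per gene. Filled points have an adjusted p under 0.05, and names are given for genes past 0.6 in either direction. Srebf1 at -1.94 and Sesn2 at 1.56 lie farthest from 0, and the subunits and upstream kinases lie between -0.74 and 0.34.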

How the data were processed

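Liver RNA of 6 Sedentary and 6 Exercise mice was sequenced with the BGI Optimal Dual-mode mRNA library kit. The submitters' processing notes name Bowtie2 2.3.4.3, RSEM 1.3.1 and mm10. The annotation, the strand setting and a test for the sequencing are not given in the sources used here. The authors deposited estimated counts, of which 31.3% were not whole, because a read can be divided between genes or transcripts. They also deposited FPKM, scaled by the authors for depth and transcript length and given to few decimals.

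Groups were taken from the labels. Rounded counts entered the robust quasi-likelihood test of edgeR 4.0.16 (R 4.3.3) with TMM factors and no covariate. filterByExpr (minimum count 10) left 12344 genes, over which p-values were adjusted by Benjamini-Hochberg (threshold 0.05). For single genes, exact two-sided permutation tests over 924 relabellings compared mean log2(CPM + 0.5). Their smallest p is 0.00216. Shares and sums of FPKM were tested likewise and adjusted over 3 classes. Effective length was the count divided by the FPKM and the library total. Its permutation test cannot pass after adjustment over 9035 genes unless 392 of them reach the smallest p, so limma 3.58.1 was used, a choice made after seeing the data. P-values set the difference between the groups against the spread between these livers.

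The AMPK genes and all lists were written from general knowledge with earlier results of these data known. All 10 genes are named, and of each list up to 4 called genes with the highest and the lowest log2 fold change. A gene that the rule names is not reported here. The 3 nearest patterns are named for the called genes with the highest and lowest change.

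The groups share replicate numbers, but deviations of same-numbered livers correlated from -0.099 to 0.16 and 2 of 6 pairs were over 0.1, so the numbers were not treated as pairs. None of 66 library pairs was identical. Alternatives were other scalings, no filter, DESeq2 1.42.0, limma-voom, limma on log2(FPKM + 0.1), the replicate number as a block and leaving out each liver. Promoters and positions came from RefSeq GRCm38.p6 and GENCODE on GRCm38. The scripts were tested on simulated data. Python 3.11.15, pandas 2.3.3 and scipy 1.17.1 were used for the rest.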

Additional observations from a re-analysis of the deposited data

Results flagged for a closer look

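In 32 groups of 6 livers (the 10 genes, 3 shares and 3 sums in both groups), 3 had an outermost liver far from the rest by Dixon's 95% criterion, where chance gives about 1 in 20 groups (1.6 of 32). The Prkag1 share of γ subunit FPKM was 70.3% in Exercise replicate 3, against 65.8% in the next liver. The summed α subunit FPKM was 7.36 in Exercise replicate 6, against 8.18 in the next liver. The summed γ subunit FPKM was 35.7 in Sedentary replicate 2, against 31.3 in the next liver. None of the 10 genes had such a liver in CPM.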

How the results depend on the processing

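Camkk2, Prkab1, Prkaa1 and Prkaa2 kept their direction and their call under each of the 8 other scalings, filters, tools and the replicate block. The Cab39 call was lost with library size alone (0.13) and on the FPKM scale (0.12, adjusted p = 0.177 from limma), and the Prkag2 call on the FPKM scale (-0.21, adjusted p = 0.0913 from limma). Both scales move the median of all genes to -0.098 and -0.093 on the log2 scale. The share of higher calls then went from 49.8% to 32.1% and 31.4% over all genes, and from 28.6% to 16.7% and 20% over the 10 genes. It went from 57.1% to 46.7% and 50% over the substrates, and from 77.8% to 60.0% and 55.6% over the regulators. TMM factors averaged 1.03 in Sedentary and 0.968 in Exercise livers. Results that reversed had small changes throughout. Stk11 was -0.012 on the FPKM scale, Strada was -0.082 with library size alone, -0.0073 with upper quartile factors, -0.095 on the FPKM scale and -0.023 to -0.0097 without Sedentary replicate 2, Exercise replicate 5 or Exercise replicate 6 (-0.023 to 0.068 over all 12 such fits). As shares of TMM-scaled counts, which are not per length, the differences were 5.68 points for Prkaa1, -3.64 for Prkab1 and 0.62 for Prkag1. The summed α difference was -0.013 with FPKM divided by the TMM factor. In the list of further family genes, 1 gene was called with library size alone and 1 on the FPKM scale, each as lower. Apart from the change of scale itself, the cause was not tested.

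With the replicate number as a block, the pairing left 6 of the 10 genes called, without Prkag1 (-0.16, adjusted p = 0.0506 from edgeR), and 4956 of all genes against 5229. Acacb lost its call (-0.45, adjusted p = 0.127 from edgeR). The exact sign-flip test over the 6 same-numbered differences cannot give a p under 0.0312 before adjustment. It gave adjusted p-values of 0.0938 for the Prkaa1 share (7.65 points), 0.141 for the Prkab1 share (-1.67 points) and 0.125 for the summed α level (-0.11). The Prkaa1 share was higher in the Exercise liver of every same-numbered pair, so its p before adjustment was the smallest this test can give. For the summed β and γ levels (-0.51 and -0.24) the sign-flip test gave an adjusted p of 0.0469 each. Of the 6 Sedentary livers, 2 correlated best with the Exercise liver of their own number.

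Leaving out each liver in turn gave 4 to 7 of the 10 genes called, with 4 without Exercise replicate 5, and 4739 to 5222 of all genes. It gave 0 to 1 further family genes, 5 to 6 related kinases, 11 to 14 substrates, 8 to 10 regulators and 6 to 9 nucleotide enzymes. The share differences ran from 7.03 to 8.15 points for Prkaa1, -2.01 to -1.39 for Prkab1 and -1.56 to -0.099 for Prkag1. The log2 differences of the sums ran from -0.13 to -0.078 for α, -0.54 to -0.48 for β and -0.26 to -0.20 for γ. Effective length gave 0 of the genes in each. The counting error of Strada (14.6%) was above its spread between livers (9.97% and 11.7%), so depth limits its value. Prkab2 varied beyond its counting error of 14.9%.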
